A study of Mus musculus with 8 samples.

Results

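Cytosolic ribosomal proteins are the protein part of the ribosomes that translate nuclear messengers. Members were taken by gene symbol, as Rpl or Rps followed by a number with an optional a or x, by a alone or by p0 to p2, and so exclude pseudogenes and S6 kinases. The rule found 76 genes with 110 rows, of 16573 gene symbols with 36743 rows in all, and 76 of the 76 genes annotated under such names had at least 1 row. They comprise 43 genes of the large subunit, 30 of the small subunit and the 3 genes of the stalk.

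The libraries come from mouse tibialis anterior with extensor digitorum longus, 3 days after both groups received notexin at 2 mg/mL, a phospholipase of snake venom that kills muscle fibres. The genotypes were labelled Ctrl, with n = 4 libraries, and Psat1iKO (Psat1KO in the sample titles), with n = 4 libraries, and the labels give no age, sex, promoter of the deleting enzyme or deleted exons. Psat1 encodes phosphoserine aminotransferase, an enzyme of serine synthesis. The labels name muscle stem cells collected by flow cytometry, whereas the series' design text names Trizol extraction of the muscles, and nothing says that libraries of a group are separate mice. The p-values then reflect the spread between these libraries only, which may be technical.

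Ribosomal proteins are made in near-equal numbers, since each ribosome holds a single copy of almost every one of them, and the stalk proteins are the exception. Their messengers are short and abundant and begin with a stretch of pyrimidines, the terminal oligopyrimidine (TOP) tract. The growth kinase mTOR controls the translation of TOP messengers, in part through the RNA-binding protein Larp1, so that supply of the proteins can change with no change in messenger level. RNA counts do not measure that step. Muscle stem cells that leave quiescence after injury are known to build ribosomes before they divide.

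The deposited table gives for each row a mean normalized count over all libraries, the log2 fold change, its standard error (SE) and a DESeq2 p-value. No values per library were analysed here, so depth is unknown and the spread of a gene within a group is not shown. Rows whose names differ only in a final dot and digits were taken as rows of the same gene. What such a row stands for, a transcript or another part, is not stated. The row of highest mean count is called the leading row. Group means named below as fitted are rebuilt from the mean count and the fold change. A gene was called when the DESeq2 p of its leading row had a Benjamini-Hochberg adjusted p under 0.05 over the leading rows of all genes. All fold changes are Psat1iKO minus Ctrl on the log2 scale.

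In the labelled material, the 15 muscle stem cell and myoblast markers had a median mean count of 10024. The medians were 1280 for 11 of 12 myofibre markers, 106 for 9 of 10 fibro-adipogenic markers, 59.95 for 9 of 12 macrophage markers and 11.3 for 10 endothelial markers. Csf1r, C1qa, Fcgr1, Pvalb and Pi16 had no row. Psat1 itself, in the authors' deposited table, was lower on its leading row by a fold change of -0.49 ± 0.0675 (SE), with fitted means of 20204 in Ctrl and 14362 in Psat1iKO and a DESeq2 adjusted p of 1.22e-09. The fitted counts of all macrophage markers summed to 2790 in Ctrl and 627 in Psat1iKO, of which Lyz2 alone held 1849 and 299. The authors' deposited table gives Lyz2 a fold change of -2.63 ± 1.14. Of the 9 macrophage markers, 0 were called, 9 lay below 0 and 2 were lower at an unadjusted DESeq2 p under 0.05. Of the endothelial markers 8 of 10 lay below 0, with a median fold change of -0.80 and 0 called, and 0 had an unadjusted DESeq2 p under 0.05. Over all leading rows, 0.223% were called and 51.9% lay below 0. An unadjusted DESeq2 p under 0.05 was met by 4.09% of them, or 2.23% in the lower direction. Of the 15 muscle stem cell and myoblast markers 1 was called, the myogenic transcription factor Myod1 (adjusted p 0.013 over leading rows, from DESeq2 p-values). For Myod1 the authors' deposited table gives 0.16 ± 0.0386, higher in Psat1iKO. The part of these markers in the values below was not tested, and in bulk RNA fewer cells of a type cannot be told apart from less RNA per cell.

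The first bases of some members are shown because the pyrimidine stretch at the start of the messenger is the feature that these genes are best known to share. The sequences are RefSeq promoter entries of GRCm38.p6 on the sense strand, 30 bases long with the annotated first transcribed base at position 16. Capitals mark the longest unbroken run of C or T near the start. Rps24, Rps27, Rpl38 and Rps6 recur in the results, Rplp2 is a stalk member, Rpl7a has the longest run in the printed set and Rpl24 has no run of 8 or more in the window.
Rps24 chr14:24490663-24490692 (+): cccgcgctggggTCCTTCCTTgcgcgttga
Rps27 chr3:90213634-90213663 (-): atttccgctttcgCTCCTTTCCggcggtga
Rpl38 chr11:114668565-114668594 (+): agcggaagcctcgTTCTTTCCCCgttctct
Rps6 chr4:86857353-86857382 (-): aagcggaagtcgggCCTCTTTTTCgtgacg
Rplp2 chr7:141447636-141447665 (+): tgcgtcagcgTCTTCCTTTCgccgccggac
Rpl7a chr2:26910792-26910821 (+): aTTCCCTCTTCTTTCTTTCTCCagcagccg
Rpl24 chr16:55966260-55966289 (+): agaaagctgttgctaggaaacagactgggc

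Rps24 has another RefSeq start, not printed, with a window from 24490738 to 24490767 on chromosome 14. A longer run of 19 pyrimidines begins at position -37 from that start. GENCODE transcripts Rps24-202 and Rps24-210 begin at 24490718.

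RefSeq entries were matched for 56 of the 76 members, with 66 start windows between them. A run of at least 8 pyrimidines within 25 bases of the annotated start was present in 38 of the 66 windows, which is 57.6%, against 24.1% of all 32851 windows and 23.2% of the 16283 windows of genes with rows in the table, the closer background. The run need not begin at the annotated base, and annotated starts can lie some bases away from those in use. Over the whole window of 250 bases before and 50 after the start, read on both strands, the ETS core CCGGAAG was in 36.4% of member windows, 8.86% of all windows and 14.6% of windows of genes with rows. In the same order, the YY1 core AAGATGGC was in 10.6%, 2.75% and 3.84%, and the cAMP response element TGACGTCA in 7.58%, 1.79% and 2.62%. These member shares rest on 7 windows of 5 genes for YY1 and 5 windows of 5 genes for the cAMP response element. Windows of a gene with several starts can overlap, as those of Rpl35a with the YY1 core do, and are not separate observations. The GC box GGGCGG was in 60.6%, 35.7% and 56.4%, so members were close to other genes with rows. The TATA box TATAAA was in 9.09%, 13.6% and 8.62%, which puts members below all windows but slightly above those of genes with rows. None of these letter strings contains another. Fold changes were split by the pyrimidine run and the ETS core alone. The median was -0.03 for the 34 genes with a pyrimidine run and -0.03 for the 22 without, and -0.03 for the 23 with an ETS core and -0.02 for the 33 without.

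The member genes were among the most abundant in the table. Their rows held 7.65% of all mean normalized counts, and 69 of the 76 leading rows reached a mean of 10000, as did 559 of all 16573. Per kb of the shortest APPRIS principal transcript in GENCODE M21, the median level was 45135 mean normalized counts, with quartiles of 31705 and 58779. The highest level per kb was that of Rpl41, the smallest protein of the large subunit, at 150740 counts per kb. Rps2, a protein near the messenger entry of the small subunit, stood at 145750 counts per kb. The stalk genes Rplp1 and Rplp0, whose proteins recruit elongation factors, followed at 123881 and 98054 counts per kb. With no spread over libraries given for these levels, neighbours in this order cannot be told apart.

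At the low end of the level per kb lay Rps24, a small subunit protein mutated in human Diamond-Blackfan anaemia, at 2430 counts per kb. Rps6, the small subunit protein that S6 kinases phosphorylate, had 2895 counts per kb, Rps27 had 4791 and the large subunit protein Rpl15 had 5112. The ratio of the highest to the lowest level per kb was 62.0, although the proteins are needed in like numbers. How reads that match several places were counted is not given in the sources used here, and its part in these levels was not tested. Of the 76 members, 72 had at least 1 other annotated gene with a transcript at 95% identity or more over at least 200 bases. The number of such genes was 8 for Rps24, 11 for Rps6, 4 for Rps27 and 14 for Rpl15, against a median of 5 and a highest value of 61 for Rpl21. The transcript chosen also sets the order. The principal transcript of Rps24 has 1613 bases, whereas its other coding transcripts have 468 to 714. The shortest principal transcript was taken after the values had been seen, because the longest one of Rps15a has 5179 bases against 640 for its shortest and had put that gene last.

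Across genotypes, ribosomal protein messengers differed little. The median fold change of the 76 leading rows was -0.03, which is a fold of 0.981, beside -0.01 over all 16573 leading rows. No member was called (0 of 76, where 0.223% of all leading rows were), and 1 had an unadjusted DESeq2 p under 0.05, against 4.09% of all leading rows, or 2.23% in the lower direction. Of the 69 abundant members, 0 were called and 0 had an unadjusted DESeq2 p under 0.05. The shares of all leading rows of that abundance, members included, were 0.894% and 3.22%. Over all 110 member rows, 0 had a DESeq2 adjusted p under 0.05 in the authors' deposited table, where 0.656% of all rows did, and 3 had an unadjusted p under 0.05, against 6.04% of all rows. With a 2-fold change asked for as well, 0.482% of all rows passed, while the count of member rows could only stay 0. The summed fitted means of the members were 2856950 in Ctrl and 2803598 in Psat1iKO, which is 7.71% and 7.59% of the summed fitted means of all rows.

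**Figure D1:**
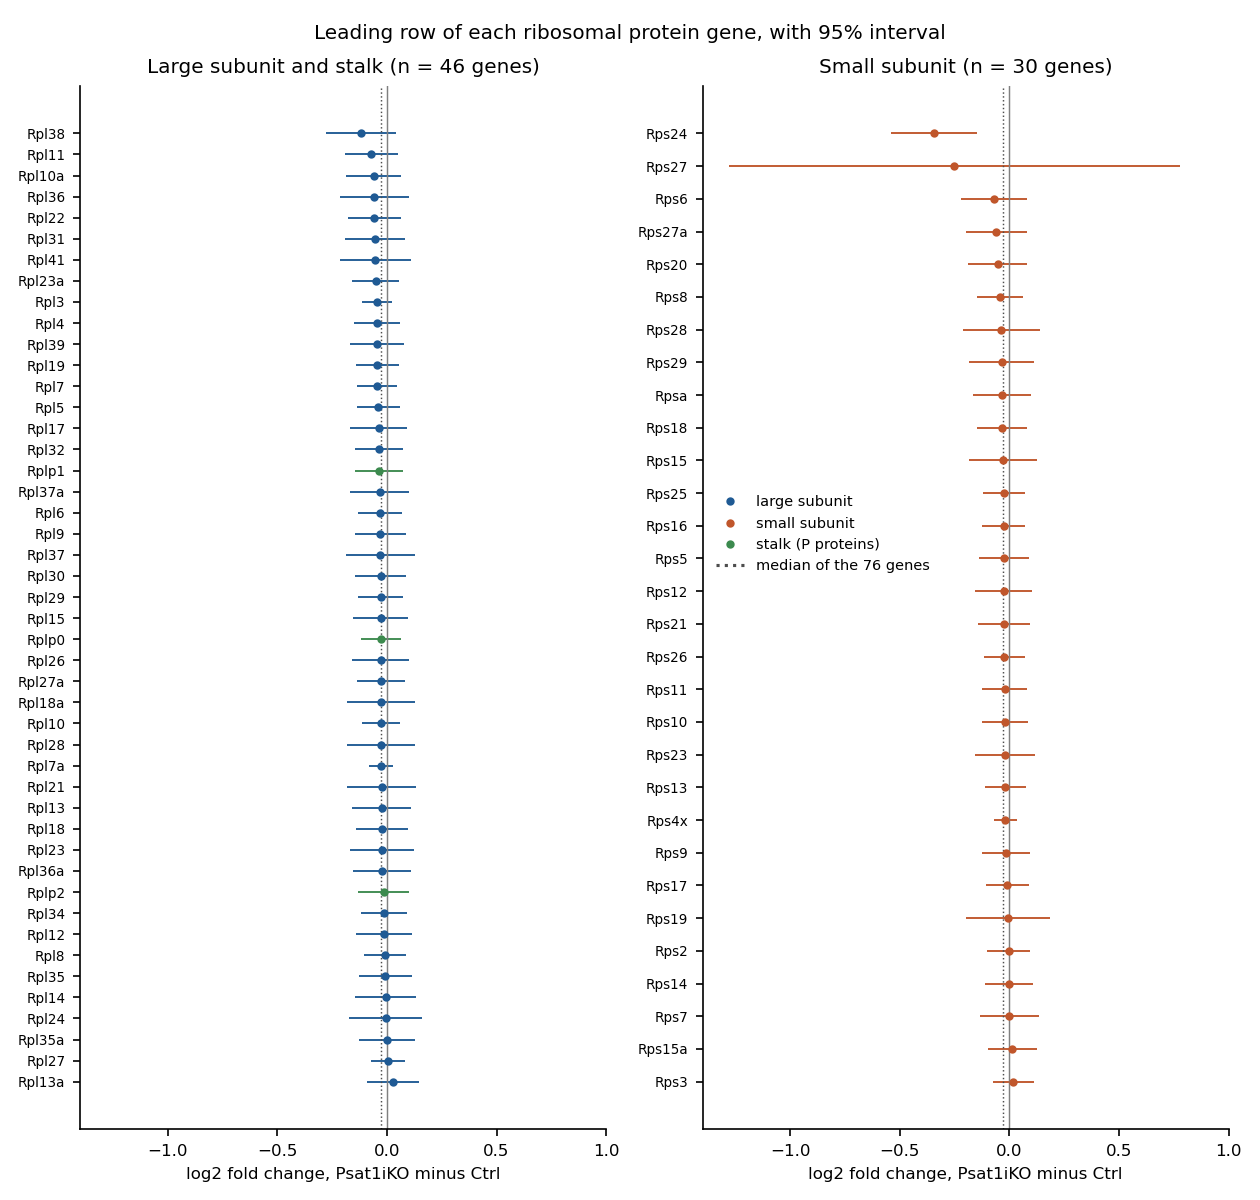
Log2 fold change (Psat1iKO minus Ctrl, horizontal axis) of the leading row of each of the 76 genes, with bars for the 95% interval from the authors' SE; large subunit and stalk genes are on the left and small subunit genes on the right. Apart from Rps24 at -0.34, every interval holds 0, and Rps27 has by far the widest.

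The small differences mostly had the same sign. Of the 76 leading rows, 71 lay below 0, against 51.9% of all leading rows. Abundant genes as a class lay below 0 more often, at 73.9% of the 559 rows whose mean reached 10000. These 559 include 69 members, of which 65 lay below 0, against 71.0% of the 490 other genes. The 69 members had a median of -0.03 and ranged from -0.07 to 0.03, and the 490 other genes had a median of -0.01. The members are measured in the same libraries and share their scaling, so their common sign is not 71 separate observations.

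The fold changes of the abundant members were spread less widely than the SE of a single member. The standard deviation of the fold change over the 69 members whose mean reached 10000 was 0.0185, beside a median SE of 0.0599 for the same rows. Each SE belongs to a gene on its own, and all members were measured in the same libraries. The SE is therefore not the error of a difference between members, which was not tested. The 95% interval of 75 of the 76 members, all but Rps27, lay inside a change of 1.5-fold in either direction, as it did for 49.4% of all leading rows and 96.9% of the 490 other abundant ones. For 29 of the 76 members, or 38.2%, the interval lay inside 1.1-fold. Among abundant genes it did so for 28 of the 69 members, or 40.6%, and for 60.4% of the 490 others. A uniform change of the whole group that the size factors of DESeq2 absorbed would not be seen in these values.

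**Figure D2:**
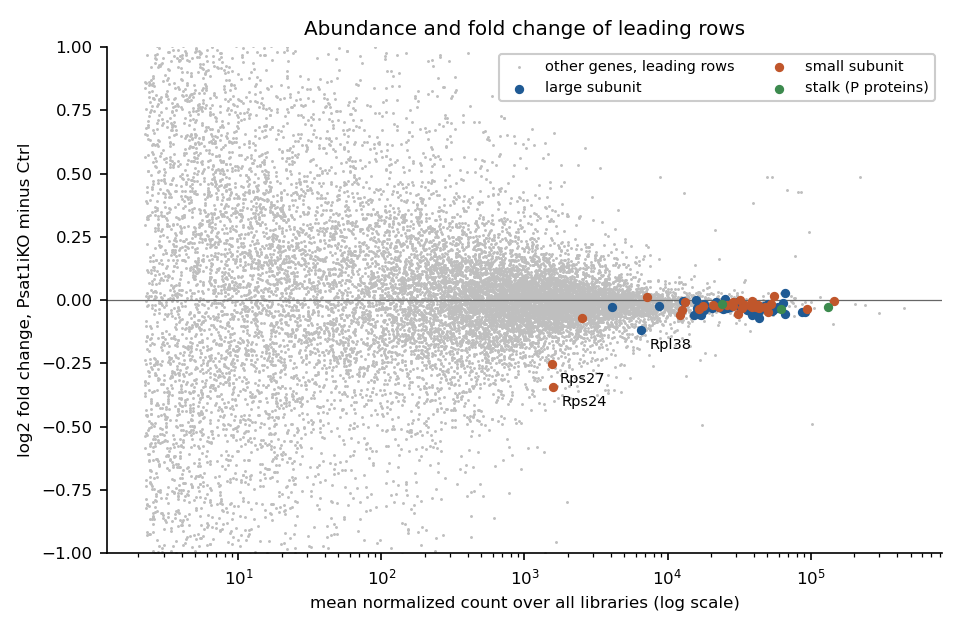
Mean normalized count over all libraries (horizontal, log scale) against log2 fold change (vertical) for the leading row of each gene, with ribosomal protein genes coloured by subunit and other genes in grey; 1255 other genes lie outside the plotted range. The members sit at the abundant end in a narrow band just under 0, and Rps24, Rps27 and Rpl38 lie lowest.

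The subunits had nearly equal medians. The 43 large subunit genes had a median of -0.03 with 40 below 0, and the 30 small subunit genes a median of -0.03 with 28 below 0. In the authors' deposited table the stalk gene Rplp0 stood at -0.03 ± 0.0468 (SE), Rplp1 at -0.04 ± 0.0562 and Rplp2 at -0.02 ± 0.0599. All 3 stalk genes thus lay within their SE of 0. For Rplp0 the 95% interval of the fold was 0.920 to 1.04 around 0.980, with fitted means of 134488 in Ctrl and 131828 in Psat1iKO.

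In the large subunit, Rpl5 and Rpl11 bind the 5S ribosomal RNA and, when free, the p53 inhibitor Mdm2. Rpl5 had -0.04 ± 0.0494 and Rpl11 -0.07 ± 0.0615 in the authors' deposited table. The lowest large subunit gene was Rpl38, known in mouse for a patterning defect of the skeleton, at -0.12 ± 0.0808, with fitted means of 6790 and 6255 and an unadjusted DESeq2 p of 0.143. Next to Rpl11 followed Rpl10a at -0.06 ± 0.0641, Rpl36 at -0.06 ± 0.0803 and Rpl22 at -0.06 ± 0.061 in the authors' deposited table. The highest were Rpl13a at 0.03 ± 0.0604, Rpl27 at 0.00 ± 0.0391 and Rpl35a at 0.00 ± 0.0655. Rpl10, which completes the late large subunit, stood at -0.03 ± 0.0436 in the authors' deposited table. None of these values exceeded its SE apart from Rpl38 and Rpl11, and none was called.

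In the small subunit, Rps6 had -0.07 ± 0.0761 and Rps27a, which is made as a fusion with ubiquitin, -0.06 ± 0.0701 in the authors' deposited table. Rps19, the gene most often mutated in human Diamond-Blackfan anaemia, had -0.01 ± 0.0976. The highest small subunit genes were Rps3, a protein of the messenger entry channel, at 0.02 ± 0.0473 and Rps15a at 0.01 ± 0.0562 in the authors' deposited table. Rps7 and Rps14 stood at 0.00 ± 0.0687 and 0.00 ± 0.0553. The most abundant members by summed count, Rps2, Rplp0, Rpsa and Rpl4, ranged from -0.05 to 0.00. Rps4x had the smallest error of all members, at -0.02 ± 0.0264.

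Rps24 was the 1 member whose leading row had an unadjusted p under 0.05. Row Rps24.1 had fitted means of 1779 in Ctrl and 1403 in Psat1iKO and a fold change of -0.34 ± 0.1 (SE), a fold of 0.788 with a 95% interval of 0.688 to 0.904. Its DESeq2 p was 6.33e-04, the 74th smallest of 16573 leading rows, and its adjusted p was 0.141 over leading rows. Over all rows, the authors' deposited table gives 0.0764. It was therefore not called. The row held 40.6% of the mean count of the gene. Row Rps24 pointed the other way, with fitted means of 946 and 1155 and a fold change of 0.29 ± 0.283, and row Rps24.2 was level at -0.01 ± 0.209. Summed over the rows, the gene had fitted means of 4005 in Ctrl and 3834 in Psat1iKO, a log2 difference of -0.06 with no test.

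The Rps24 gene lies on chromosome 14 from 24487125 to 24496959 in GRCm38 and is known for alternative splicing at the end of its coding sequence. GENCODE M21 lists 12 transcripts for it, of which 5 are coding, against 3 rows in the table, and the rows carry no transcript identifier. The coding transcripts share an exon at 24493383 to 24493493 and then part. The last 30 coding bases with the stop codon are shown for 3 of them because reads that tell these endings apart must reach past that exon. Capitals mark the bases after the shared exon.
Rps24-202: aaggccaatgttggtgctggcaaaaagTGA
Rps24-205: gccaatgttggtgctggcaaaaagAAATGA
Rps24-210: gttggtgctggcaaaaagCCAAAGGAGTAG
Rps24-205 alone includes the 18-base exon at 24494052 to 24494069 on chromosome 14. After the shared exon, coding continues for 3 bases in Rps24-202, 6 in Rps24-205 and 12 in Rps24-210. Which of these endings row Rps24.1 holds, if any single one, cannot be read from the table.

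Of the 76 members, 55 had 1 row and 21 had several, up to 5 for Rpl22. The 34 rows that were not leading had a median mean count of 789 and a median SE of 0.149, so they were measured less closely than the leading rows. Their fold changes ranged from -0.28 to 1.11, with 18 below 0 and 16 above 0, and a median of -0.01. The extremes were on rows of few counts, such as row Rpl22 of the gene of that name, for which the authors' deposited table gives a mean of 111 and a fold change of 1.11 ± 1.05.

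Among the 34 rows that were not leading, 2 had an unadjusted DESeq2 p under 0.05, both lower. This is a share similar to the 6.04% of all rows. Row Rps15, with 3.06% of its gene, had fitted means of 1131 in Ctrl and 949 in Psat1iKO and a fold change of -0.25 ± 0.107 (from the authors' deposited table, DESeq2 p 0.018 and adjusted p 0.548). Row Rps27a, with 13.5% of its gene, had fitted means of 2024 and 1830 and a fold change of -0.15 ± 0.0636 (from the authors' deposited table, DESeq2 p 0.0222 and adjusted p 0.598). The leading row of Rps15, a protein near the decoding site, was at -0.03 ± 0.079. Next by p came row Rpl35a at -0.11 ± 0.076 in the lower direction. In the higher direction came Rpl29.3 at 0.28 ± 0.194, Rpl38.2 at 0.08 ± 0.0733 and row Rpl22, none with a p under 0.05.

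Rpl38 had 4 rows that did not all point the same way. Its leading row was not called, at -0.12 ± 0.0808, and the authors' deposited table gives 0.08 ± 0.0733 for row Rpl38.2 and 0.07 ± 0.0855 for row Rpl38. Summed over rows, fitted means were 10277 in Ctrl and 9930 in Psat1iKO, a log2 difference of -0.05 with no test.

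**Figure D3:**
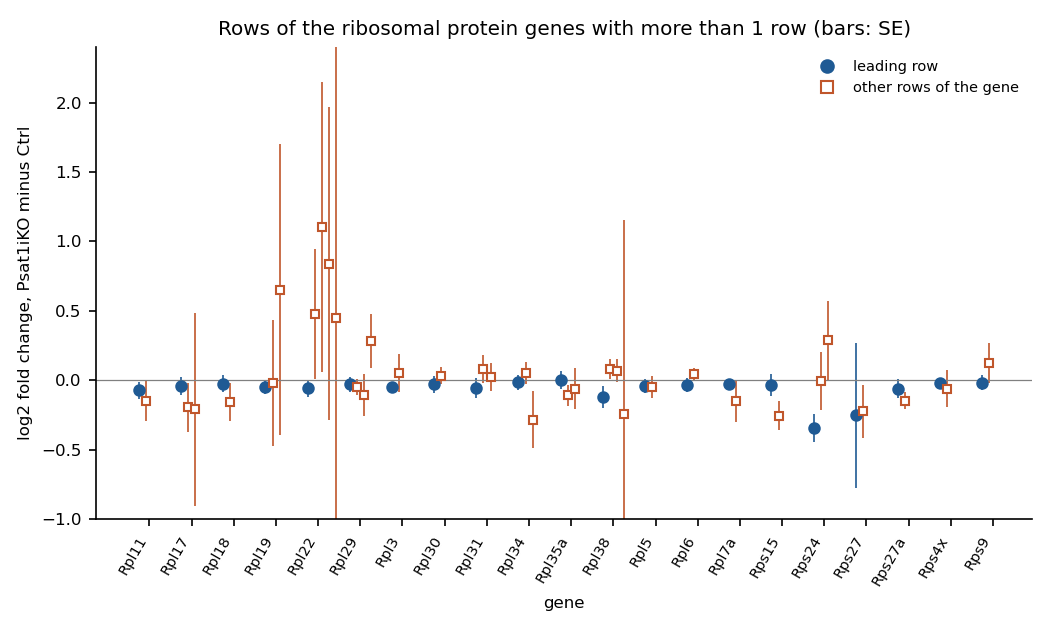
Log2 fold change (vertical, Psat1iKO minus Ctrl) of each row of the 21 genes with more than 1 row, with SE bars; filled circles are leading rows and open squares the others, and the bars of Rpl22.4 and Rpl38.3 run past the axis. Leading rows lie close to 0 except for Rps24 at -0.34 and Rps27 at -0.25, and the highest values are on rows with wide bars.

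Rps27, a zinc-finger protein of the small subunit, had the widest interval. Its leading row had fitted means of 1686 in Ctrl and 1416 in Psat1iKO and a fold change of -0.25 ± 0.525, a fold of 0.840 with a 95% interval of 0.412 to 1.71. A near-identical gene, Rps27rt on chromosome 9 from 114982366 to 114982739, matched the principal Rps27 transcript over 341 of its 345 bases with 0 mismatches. Rps27rt, named here after its values were seen, had fitted means of 13162 in Ctrl and 13268 in Psat1iKO, and the authors' deposited table gives it 0.01 ± 0.0738. Reads within those 341 bases cannot be told apart, so the division of counts between these genes is uncertain. Rows of both genes together had fitted means of 14958 and 14778, a log2 difference of -0.02 with no test, and 88.9% of the counts lay on Rps27rt.

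Other members shared sequence with genes that had rows of their own. In all, 17 members had such a partner at 95% identity or more over at least 200 bases, 18 partners in number. Rpl14 and its pseudogene Rpl14-ps1 differed at 4 bases, and 51.1% of their joint count lay on the pseudogene. For Rpl31 the share of Rpl31-ps12 was 42.1%, for Rps15a the share of Rps15a-ps4 and Rps15a-ps6 was 49.6%, and for Rpl37 the share of Rpl37rt was 8.93%. In the remaining 12 pairs the partner held 2.37% or less. Summed with its partners, Rps15a went from a log2 difference of 0.01 to -0.02, so that its sign turned. Rpl31 went from -0.04 over its own rows to -0.02, Rpl14 from -0.01 to -0.02 and Rpl37 from -0.03 to -0.04, all with no test. GENCODE names 297 pseudogenes after members. The deposited table had rows for 7 genes with such names, of which Rplp2-ps1 is not among the 297.

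**Figure D4:**
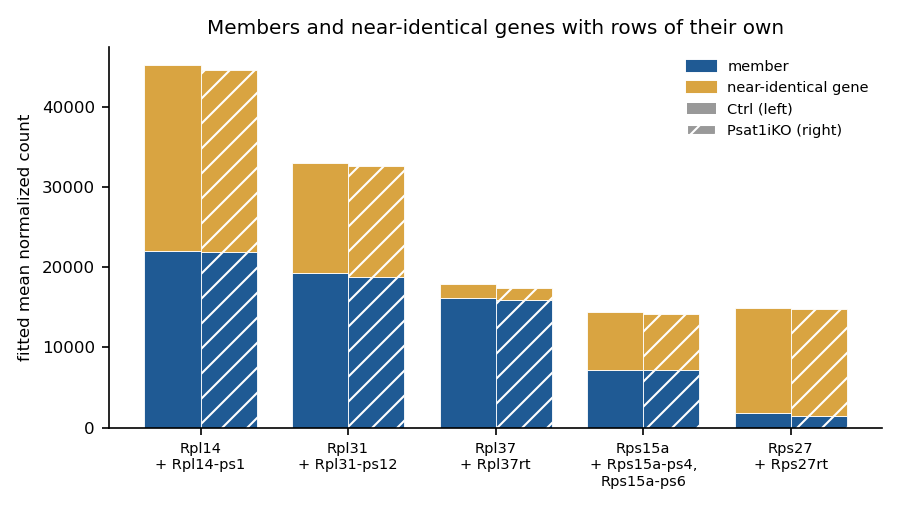
Fitted mean normalized count (vertical, stacked) of 5 members in blue and of their near-identical genes in yellow, with Ctrl as the left plain bar and Psat1iKO as the right hatched bar; error bars cannot be given for these sums. The joint height is almost the same in both genotypes for each pair, while the division between the genes ranges from 8.93% to 88.9% on the copy.

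Some ribosomal protein genes fall outside the name rule. Fau, whose product carries a ribosomal protein fused to a ubiquitin-like domain, had -0.04 ± 0.0704 in the authors' deposited table. The small subunit scaffold Rack1 had -0.03 ± 0.0577. Rps3a1, named here after its value was seen, had -0.02 ± 0.0449 in the authors' deposited table. Paralogs of ribosomal proteins had 6 of 9 members with rows and 0 called. Of these, Rpl22l1, a paralog of Rpl22, had -0.13 ± 0.0565 in the authors' deposited table, with an unadjusted DESeq2 p of 0.0216 and an adjusted p of 0.595. Rpl36al had -0.02 ± 0.0457, Rpl7l1 0.01 ± 0.0311, Rps27l 0.00 ± 0.0347 and Rps4l 0.05 ± 0.258. Rpl39l, with a mean count of 2.31, had -0.14 ± 1.17. Rpl3l, a striated muscle paralog of Rpl3, Rpl10l and Rpl26l1 had no row.

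Other lists of the translation machinery held no called gene. At the background of 0.223% called, fewer than 1 call would be met in a list of any of these sizes, and 51.9% of all leading rows lay below 0, or 73.9% of abundant ones. The lists were drawn up with earlier results of these data known. Translation initiation factors had 0 of 29 called, 0 at an unadjusted DESeq2 p under 0.05 and a median of -0.02, with 24 below 0. The list of elongation factors and other TOP messengers had 0 of 22 called, 1 at an unadjusted DESeq2 p under 0.05 and a median of -0.02, with 19 below 0. The elongation factors Eef1a1 and Eef2 belong to it, both chosen after their values were seen, at -0.03 ± 0.0371 and -0.02 ± 0.0356 in the authors' deposited table. Eef1d, an exchange factor for Eef1a1, had the smallest p in that list, with -0.48 ± 0.185 in the authors' deposited table on a row with 29.2% of the gene (DESeq2 p 0.0104, adjusted p 0.424).

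Ribosome assembly factors had 0 of 61 called and a median of -0.01, with 37 below 0. The ribosomal RNA methyltransferase Nop2 had 0.17 ± 0.0673 and the export adaptor Nmd3 had -0.10 ± 0.0474 in the authors' deposited table, the 2 members with an unadjusted p under 0.05. The RNA polymerase I machinery, which makes ribosomal RNA, had 0 of 14 called and a median of 0.00, with 7 below 0. Its subunit Polr1c, the 1 member with an unadjusted p under 0.05, had 0.07 ± 0.0336 (from the authors' deposited table, DESeq2 p 0.0422 and adjusted p 0.777). Regulators of ribosomal protein output had 0 of 21 called, 0 at an unadjusted DESeq2 p under 0.05 and a median of 0.02, with 10 below 0. The smallest p-values in this list were those of Rps6ka1, Mdm2 and Zfp692. The authors' deposited table gives them 0.39 ± 0.264, 0.14 ± 0.109 and 0.30 ± 0.232. Larp1 and Mtor, both chosen after their values were seen, had 0.02 ± 0.109 and 0.04 ± 0.0512 there. Mitochondrial ribosomal proteins, which form a separate ribosome, had 0 of 78 called, 1 at an unadjusted DESeq2 p under 0.05 and a median of -0.02, with 52 below 0. Their fold changes had a standard deviation of 0.0768 and a median SE of 0.0591, at a median mean count of 1752.

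**Figure D5:**
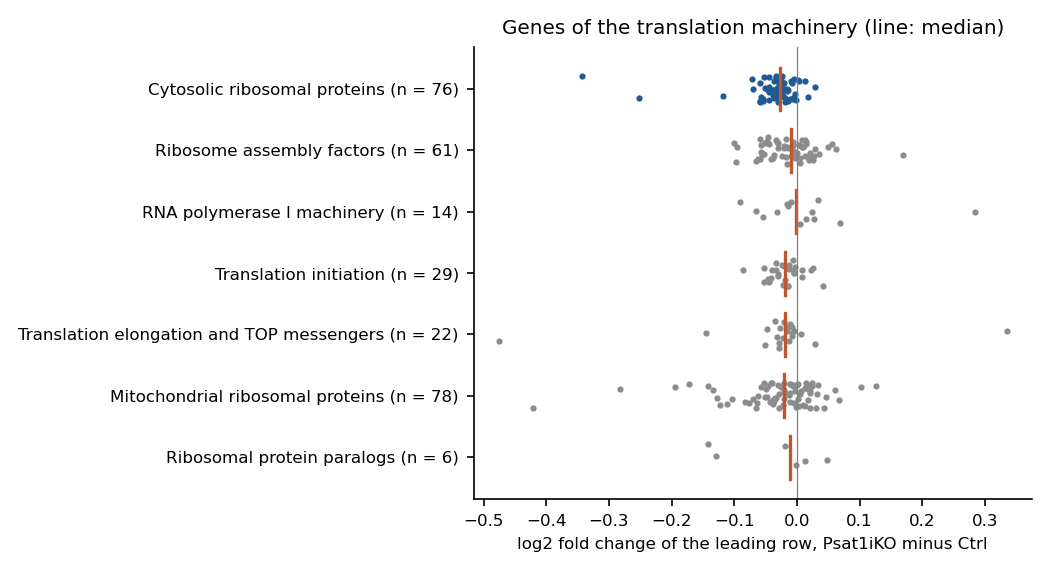
Log2 fold change (horizontal, Psat1iKO minus Ctrl) of the leading row of each gene in lists of the translation machinery, with 1 point per gene and a line at the median. Medians lie between -0.03 and 0.00, and the cytosolic ribosomal proteins (top) lie in a narrow band from which Rps24, Rps27 and Rpl38 stand out to the left.

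Member genes lay on 19 chromosomes, with at most 14 on 1 of them. By chromosome the median fold change ranged from -0.19 on chromosome 14, which holds only Rps24 and Rpl15, to 0.00 on chromosome 16. The 5 members on chromosome 4 had a median of -0.06 and ranged from -0.07 to -0.05. Within 20 Mb of Pax7 on that chromosome lay Rpl11, from 136028265 to 136053428, and Rpl22, from 152325742 to 152334071, with the values given above and neither called. Introns of ribosomal protein genes often carry small nucleolar RNAs, which guide modification of ribosomal RNA. GENCODE places 56 small nucleolar RNA genes inside 29 members on the same strand. Those 29 hosts had a median of -0.03 with 27 below 0, and the 47 other members a median of -0.03 with 44 below 0.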

How the data were processed

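Poly(A) RNA was sequenced from 8 libraries, 4 Ctrl and 4 Psat1iKO. The input was 250 ng of RNA and the kit NEBNext Ultra II, per the labels and the series' design text. The submitters' processing notes name HISAT2 2.2.1, build mm10 and DESeq2, with 4.2.0 as its listed version. The counting program, annotation and strand setting were not stated in these sources. The authors deposited 1 comparison table. Per the file headers it holds the mean normalized count (a signal averaged over libraries, lowest value 2.22), the log2 fold change of Ctrl over Psat1iKO with its SE, a Wald statistic (a score) the p-value and an adjusted p. Recomputing the latter by the Benjamini-Hochberg method over the table's rows gave the deposited values with a largest difference of 1.39e-05.

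Signs were turned to Psat1iKO minus Ctrl. Fitted group means assume equal group sizes. p-values of leading rows were adjusted again over the 16573 leading rows (numpy 2.4.6, pandas 2.3.3), a step tested on simulated data. Intervals are normal 95% intervals from the deposited SE. Coordinates and transcripts are from GENCODE M21 (GRCm38, the assembly of mm10), near-identical transcripts from BLAST 2.17.0 and start sequences from RefSeq GRCm38.p6. Members, lists and the rule for named genes (highest and lowest fold changes, most and least counts, smallest p, known roles) were chosen with earlier results of these data known. Without values per library, no count test, other normalization or leaving out of libraries was run. Alternatives were other adjustments, filters on the mean count and gene totals.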

Additional observations from a re-analysis of the deposited data

How the results depend on the processing

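By DESeq2 p-values, the count of called members was 0 under all 3 alternatives for leading rows. Over all genes, 56 of 16573 were called by the authors' adjusted p over all rows and 33 of 10260 at a mean count of at least 100. With the smallest p per gene, multiplied by the number of rows of the gene before adjustment, 194 of 16573 were called. For all rows the count was 0 at a mean of at least 100, where 85 of 17374 rows were called. A 2-fold change in addition could only give 0, since no member row was called without it. The same holds for the authors' adjusted p on leading rows. With so few calls over all genes, a count of 0 among the members says little. At an unadjusted p under 0.05 the count was 1 for leading rows and 3 for all rows. By the smallest p per gene, so multiplied, 3 members were under 0.05. The median fold change of -0.03 was set beside 7 alternatives. Those chosen after seeing the data, 2 in number, left out members that have near-identical genes with rows, or took abundant members alone. The filter at a mean of at least 1000 kept all 76 members, so it could not change the value. The difference from the median of all leading rows, which is another quantity, was -0.02. The other alternatives gave -0.03. The adjusted p of Rps24.1 was 0.141 and lay between 0.0764 and 0.114 under 4 alternatives. No paired analysis was possible because the deposited table has no values per library, and leaving out single libraries was not run for the same reason. Depth per library is unknown, and low means limit the minor rows.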
